A study of Mus musculus with 16 samples.

Results

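Knockout clone C2 was compared with knockout clone C1, each a clonal line of C2C12 cells in which the hairpins miR-1a-1, miR-1a-2 and miR-206 were knocked out together (triple knockout, tKO). The comparison holds 8 of the 16 libraries of the series: 4 of each clone, chosen by the clone named in the library titles. C2C12 cells are mouse myoblasts, and lowering the serum makes them differentiate and fuse. Each clone was sampled in growth medium with 20% fetal serum (GM, proliferating myoblasts) and after 3 days in 2% horse serum (DM3, differentiating myotubes), with biological replicates 1 and 2 in each medium. The other 8 libraries come from control C2C12 populations 1 and 2 in the same media, with no knockout named in their labels. The growth protocol describes the cells as PAX7 negative, a statement that covers controls and clones alike. Because each clone is 1 line, the tests below measure the spread between cultures of these 2 clones, not between knockout clones in general.

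A miRNA is cut from a hairpin transcript, and its seed, bases 2 to 8 counted from the 5′ end, chooses most of its target mRNAs. miR-206 and miR-1 share a seed and are made in skeletal muscle, where they act together with miR-133. Neighbouring hairpins are often cut from 1 primary transcript, so a change at a locus can appear in several mature names, and both arms of a hairpin can appear in a library.

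The mature sequences behind the clone difference are shown here because the 17 names called below fall into 9 groups of hairpins, assigned by name. The 5p names of miR-181 do not separate their loci, as described below. The sequences shown are RefSeq entries on GRCm38 (mm10), the capitals mark the seed, and 439 of the 574 names tested matched an entry. Lower in clone C2 were both arms of miR-296 and the neighbouring miR-298, and miR-676:
miR-298-5p: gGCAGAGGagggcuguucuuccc
miR-296-3p: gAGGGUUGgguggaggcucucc
miR-296-5p: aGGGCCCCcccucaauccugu
miR-676-3p: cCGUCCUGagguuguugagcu
Higher in clone C2 were 6 names of the miR-181 family, and miR-146a-5p, miR-99a-5p, miR-34b-3p and miR-34c-5p. The 5p arms of miR-181a and miR-181b share the seed ACAUUCA and differ at 3 of the 23 positions compared. The called name miR-181a-1-3p, from the opposite arm, has the seed CCAUCGA. The same-seed relatives miR-146b and miR-100 did not pass the test:
miR-181a-5p: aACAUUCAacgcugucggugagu
miR-181b-5p: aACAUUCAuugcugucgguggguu
miR-146a-5p: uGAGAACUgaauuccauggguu
miR-146b-5p: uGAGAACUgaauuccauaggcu
miR-99a-5p: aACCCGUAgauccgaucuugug
miR-100-5p: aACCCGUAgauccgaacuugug
miR-34b-3p: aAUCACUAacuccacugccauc
For miR-34c-5p, the sequence with the most reads in the tKO libraries was listed in the deposited tables, where it held 69.8% of the reads under that name:
miR-34c-5p: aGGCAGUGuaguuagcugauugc

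The 8 tKO libraries differed in depth and in the make-up of their reads. Kept reads, those of 18 to 25 nt listed without a mismatch, ran from 66120 to 2632510 in clone C1 and from 621677 to 5195970 in clone C2. Levels below are reads of a name per 1000000 kept reads of its library (CPM). The C1 DM3 replicate 1 library stood apart: 58.6% of its reads were kept, against 81.4% to 88.7% in the other 3 C1 libraries and 84.4% to 87.9% in clone C2. In this library sequences under 18 nt made up 18.9%, and names prone to hold fragments of other RNAs (such as miR-6240) took 23.4% of the kept reads, against 0.298% to 1.58% in clone C2. The share of reads kept was 8.24 percentage points higher in clone C2 (exact permutation test within media, two-sided p = 0.278, where 36 assignments allow no p below 0.0556). The part of these differences in the results was not tested. The calls lost without this library are named below.

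The deleted miRNAs were examined first. miR-206-3p was at 909 to 63147 CPM in the 8 control libraries. In clone C1 it was at 0 and 4.39 CPM in GM and at 106 and 0.380 CPM in DM3, where 106 CPM stands for 7 reads in the shallow replicate 1 library. In clone C2 it was at 15.2 and 3.27 CPM in GM and at 6.43 and 3.80 CPM in DM3. No tKO library reached the lowest control, and the 2 clones overlapped: the mean of log2(CPM + 1) was 0.41 higher in clone C2, with a two-sided exact permutation p = 0.889. The direction was not stable: the difference was -0.18 with log2(CPM + 5), and -1.16 to 1.98 with 1 tKO library left out. miR-1a-3p had 1 read in the 4 libraries of clone C1 and none in clone C2, against 178 reads in the controls. For miR-1a-3p in clone C2 a count of 0 allows up to 0.325 CPM over the 4 libraries (upper bound of the exact 95% binomial interval, counting error only). Reads listed under the copy name miR-1a-1-3p are not in these counts. That name had a mean of 0.127 CPM over the 8 tKO libraries, a level of few reads. Its value was higher in clone C2 in GM (log2 fold change 3.13), and it was not called.

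Across all miRNA names, 17 of the 574 tested differed between the clones on the mean of both media (2.96%), 10 higher in clone C2 (1.74%) and 7 lower (1.22%), by edgeR's quasi-likelihood test at a Benjamini-Hochberg adjusted p under 0.05. The median log2 fold change over all names was -0.04. Of the 17 names, 15 moved the same way in all 4 pairs of libraries matched by medium and replicate number. The number is only a label here, and the test above did not pair libraries by it. Within either medium, 12 of the 17 did not overlap between the clones. Over all names tested, 12% did not overlap in this way, 4.7% with clone C2 higher and 7.32% with clone C2 lower. The number called depended on the fit and on single libraries: 28 with library-sum scaling, 35 with no filter on low counts and 44 with DESeq2, but 7 without C2 GM replicate 2, 11 without C1 DM3 replicate 1 and 25 without C1 DM3 replicate 2. The 11 were among the 17, and the 6 lost were miR-181a-1-3p, miR-181a-5p, miR-34b-3p, miR-34c-5p, miR-675-3p and miR-99a-5p. A fit on the 8 tKO libraries alone called 12 and lost miR-181a-1-3p, miR-181a-2-5p, miR-181a-5p, miR-181b-2-5p and miR-34b-3p, with adjusted p from 0.0723 to 0.166. miR-298-5p, miR-296-3p, miR-676-3p, miR-181b-5p and miR-181b-1-5p passed in every alternative in which they could be tested. The same contrast between control population 2 and control population 1 called 0 of 574 names by edgeR and 0 by DESeq2, with 38 at an unadjusted p under 0.05 by edgeR, against 84 between the clones. The names separating without overlap were 11% of those tested between the populations.

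**Figure D1:**
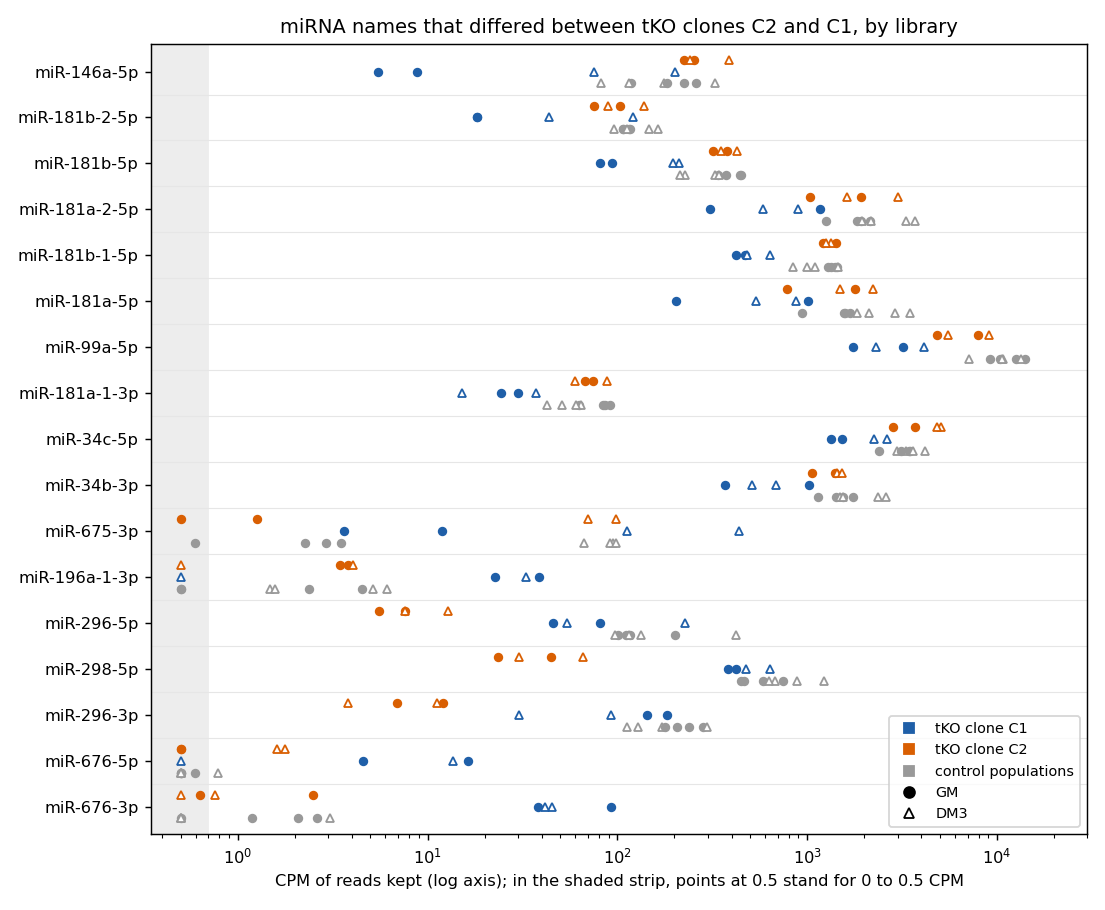
CPM (log axis) of the 17 names in each library: clone C1 in blue, clone C2 in orange and the control populations in grey, with filled circles for GM and open triangles for DM3. The orange points of miR-298-5p, miR-296-3p and miR-296-5p lie below all blue and grey points, while for the miR-181, miR-99a and miR-34 names most blue points lie to the left of the orange and grey ones.

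Of the names that passed the test and the level set for naming, those of miR-298 and miR-296 had the largest log2 fold changes, and all 3 were lower in clone C2. Without a call, miR-714-5p had one of -3.61 (SE 0.98, adjusted p = 0.0774), a name chosen after its values were seen. Its value was -1.52 in GM and -5.71 in DM3, the medium of the fragment-rich C1 DM3 replicate 1 library. The part of that library in it was not tested. The miR-296 and miR-298 hairpins lie 378 bases apart on the minus strand of chromosome 2, Mir296 (ENSMUSG00000065521.1) at chr2:174267047-174267125 and Mir298 (ENSMUSG00000065410.1) at chr2:174267504-174267585. In GENCODE M21 neither lies inside another gene: the nearest is Nespas, 13652 bases from Mir298, and the nearest coding gene is Gnas, an imprinted locus that encodes a G protein subunit. miR-298-5p was at 380.7 and 423.7 CPM in GM and 635 and 474 CPM in DM3 in clone C1. In clone C2 it was at 44.8 and 23.5 CPM in GM and 66.0 and 30.4 CPM in DM3. Every C2 library was below every C1 library and below the controls, which ran from 450 to 1221 CPM around a median of 653. The log2 fold change was -3.48 (SE 0.35, adjusted p = 3.56e-06), an 11.2-fold lower level, with -3.55 in GM (adjusted p = 0.00023) and -3.42 in DM3 (adjusted p = 0.000948).

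Both arms of miR-296 went the same way. miR-296-3p was at 143 and 184 CPM in GM and 30.2 and 92.7 CPM in DM3 in clone C1, and at 12.001 and 6.93 CPM in GM and 11.3 and 3.80 CPM in DM3 in clone C2. Its log2 fold change was -3.83 (SE 0.42, adjusted p = 6.92e-06). miR-296-5p, the other arm, was at 45.5 and 80.8 CPM in GM and 227 and 54.3 CPM in DM3 in clone C1, and at 7.58 and 5.58 CPM in GM and 12.9 and 7.59 CPM in DM3 in clone C2. Its log2 fold change was -3.28 (SE 0.44, adjusted p = 7.2e-05), and its call was lost when all libraries were thinned to the smallest (-2.21, adjusted p = 0.0974). No C2 library reached the lowest C1 library in either arm. Without C1 DM3 replicate 1 the log2 fold changes were -3.46 for miR-298-5p, -4.01 for miR-296-3p and -2.85 for miR-296-5p, all called. miR-298-3p was too rare to test, with a mean of 2.11 CPM in clone C1 and 0.206 CPM in clone C2. Summed, the 4 names of both hairpins were 573 to 892 CPM in clone C1, 36.2 to 90.1 CPM in clone C2 and 755 to 1939 CPM in the controls.

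Of the 21 other names placed on chromosome 2, 8 were lower and 13 higher in value in clone C2, with a median log2 fold change of 0.15, against 0.01 for the 417 names placed on a single chromosome. Among the 21, those called were miR-181a-2-5p and miR-181b-2-5p, both higher, which are placed there by name but may also hold reads of the chromosome 1 hairpins.

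miR-676 differed most in ratio, at a low level. Its hairpin (Mir676, ENSMUSG00000076398.1) lies at chrX:100381097-100381185, in an intron of Eda and on its strand. miR-676-3p had 42 and 147 reads in GM and 3 and 110 reads in DM3 in clone C1, which is 38.3 and 92.1 CPM and 45.4 and 41.8 CPM. In clone C2 it had 1 and 13 reads in GM and 0 and 3 reads in DM3, at most 2.502 CPM, and in the controls 28 reads in all 8 libraries, at most 3.05 CPM. Clone C1 thus stood above every other library of the series for this name. Over the 4 libraries the pooled level was 56.0 CPM in clone C1 and 1.497 CPM in clone C2, with a log2 fold change of -5.41 (SE 0.63, adjusted p = 1.65e-05), or -5.40 without C1 DM3 replicate 1 (adjusted p = 3e-05). The other arm, miR-676-5p, had 5, 26, 0 and 36 reads in clone C1 and 0, 0, 1 and 7 reads in clone C2, in the order GM then DM3. It passed the test (adjusted p = 0.00361), but not without C2 GM replicate 2 (0.0546) or without C1 DM3 replicate 2, which left no read in C1 DM3. The call was also lost with all rows counted (-2.06, adjusted p = 0.197, against -5.04). Both miR-676 names fell below the level set for naming and were chosen after their values were seen.

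Also lower in clone C2 were miR-675-3p and miR-196a-1-3p. miR-675 is cut from an exon of H19, an imprinted non-coding RNA of muscle and embryo (Mir675, ENSMUSG00000076275.1, chr7:142577064-142577147). miR-675-3p was at 3.64 and 11.9 CPM in GM and 439 and 113 CPM in DM3 in clone C1, and at 1.26 and 0.385 CPM in GM and 98.1 and 70.4 CPM in DM3 in clone C2. In both clones the DM3 libraries held more than the GM libraries, and within each medium both C2 libraries were lower. The log2 fold change was -2.40 (SE 0.53, adjusted p = 0.0112). The call was lost without C1 DM3 replicate 1 (-1.95, adjusted p = 0.0582), without C1 GM replicate 2 (-1.92, 0.145) and without C2 GM replicate 2 (-1.98, 0.193). The other arm, miR-675-5p, had a log2 fold change of -2.02 (SE 0.57) and an adjusted p of 0.0633, and passed in 6 of 30 alternatives. miR-196a-1-3p, from a hairpin in the Hoxb cluster (Mir196a-1, ENSMUSG00000065546.1, chr11:96265164-96265265), was at 22.8 and 38.9 CPM in GM and 0 and 33.0 CPM in DM3 in clone C1, and at 3.79 and 3.46 CPM and 0 and 4.05 CPM in clone C2. Its log2 fold change was -3.03 (SE 0.64, adjusted p = 0.00855), but 1.23 (adjusted p = 0.924) without C1 DM3 replicate 2, when the only C1 DM3 library left held no read of it. The call was also lost without C2 GM replicate 2 (adjusted p = 0.0869) and with all rows counted (0.0606). The other arm, miR-196a-1-5p, had a log2 fold change of the opposite sign, 0.45 (adjusted p = 0.704), with a mean of 10.2 CPM in clone C1 and 16.3 CPM in clone C2. Both miR-196a-1 names were chosen after their values were seen, while miR-675-3p met the rule for naming.

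Among the names higher in clone C2, the largest difference was that of miR-146a-5p, a miRNA induced by inflammatory signalling that represses the adaptor proteins of that pathway. It comes from Mir146 (ENSMUSG00000065601.1, chr11:43374397-43374461), which lies inside no other annotated gene. In clone C1 it was at 5.46 and 8.77 CPM in GM and 75.6 and 200.2 CPM in DM3. In clone C2 it was at 253 and 223 CPM in GM and 240.5 and 387 CPM in DM3. Both C1 GM libraries lay far below all others, and the controls ran from 82.1 to 326 CPM. The log2 fold change was 3.11 (SE 0.48, adjusted p = 0.000455), or 2.91 without C1 DM3 replicate 1 (adjusted p = 0.00331). It was 5.08 in GM (SE 0.75, adjusted p = 0.000386) and 1.13 in DM3 (SE 0.62, adjusted p = 0.619). With 1 library left out, the DM3 value ran from 0.48 without C2 DM3 replicate 2 to 2.43 without C1 DM3 replicate 2, and the GM value from 4.93 to 5.34. The call in GM was lost when all libraries were thinned to the smallest (3.07, adjusted p = 0.188). The difference between the media, tested as an interaction, was -3.95 with an adjusted p of 0.286, and it passed in 4 of 29 alternatives. miR-146b-5p, which shares the seed and differs at 2 of 22 positions, was at 393 to 938 CPM in clone C1 and 276 to 786 CPM in clone C2.

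The miR-181 family, known in muscle for its rise in differentiation and regeneration, gave 6 of the 10 higher names, where 1.74% of all names tested were called higher. Its a and b members are made from a pair of hairpins on chromosome 1 and a pair on chromosome 2. Mir181a-1 (chr1:137966455-137966541) and Mir181b-1 (chr1:137966639-137966718) lie in the processed transcript Gm4258, and Mir181a-2 (chr2:38852735-38852810) and Mir181b-2 (chr2:38853830-38853918) lie in an intron of Nr6a1, antisense to it. All 10 family names tested had a positive log2 fold change (268 of 574 over all names), with a median of 1.42 against -0.04 over all names. The deposited tables split the family by end variants: miR-181b-5p held only the exact mature sequence, miR-181b-2-5p was 98.7% a variant that is 1 base longer, and miR-181b-1-5p held 25 sequences. The b hairpins yield the same mature sequence, so these names do not separate the loci.

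miR-181b-5p was at 81.1 and 93.4 CPM in GM and 212 and 195 CPM in DM3 in clone C1, and at 376.8 and 317 CPM in GM and 429 and 351.4 CPM in DM3 in clone C2 (log2 fold change 1.54, SE 0.28, adjusted p = 0.00262). miR-181b-1-5p was at 423 and 468 CPM in GM and 484 and 640 CPM in DM3 in clone C1, and at 1210 and 1416 CPM in GM and 1335 and 1258 CPM in DM3 in clone C2 (1.44, SE 0.28, adjusted p = 0.0037). For both names every C2 library was above every C1 library. miR-181b-2-5p was at 18.2 CPM in both GM libraries and 121 and 43.9 CPM in DM3 in clone C1, and at 75.8 and 103 CPM in GM and 138 and 88.8 CPM in DM3 in clone C2, so that the clones overlapped in DM3 (1.61, SE 0.33, adjusted p = 0.00677). The 3 b names summed to 522 to 879 CPM in clone C1 and 1662 to 1902 CPM in clone C2, a ratio of means of 2.54. The call of miR-181b-2-5p was lost without C2 GM replicate 2 (adjusted p = 0.0869) or without C1 DM3 replicate 2 (0.0701). With the copy-number names merged, miR-181b-5p had a log2 fold change of 1.48 (adjusted p = 0.000818).

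The 2 names of the 5p arm, miR-181a-2-5p and miR-181a-5p, summed to 512 and 2179 CPM in GM and 1770 and 1124 CPM in DM3 in clone C1. In clone C2 they summed to 1810 and 3723 CPM in GM and 5252 and 3120 CPM in DM3. The clones overlapped in GM, where C1 replicate 2 was above C2 replicate 1. miR-181a-2-5p had a log2 fold change of 1.47 (SE 0.34, adjusted p = 0.0145), with an adjusted p of 0.0578 to 0.126 without C1 GM replicate 1, C2 DM3 replicate 1, C2 GM replicate 2 or C1 DM3 replicate 2, and miR-181a-5p of 1.40 (SE 0.37, adjusted p = 0.0468). miR-181a-5p, and miR-181a-1-3p (1.29, SE 0.33, adjusted p = 0.0376), each lost the call in 14 of the 16 fits that left out 1 library, the last being a name below the level set for naming and chosen after its values were seen. The seed relative miR-181d-5p had a log2 fold change of 1.32 (SE 0.42, adjusted p = 0.0977). It passed in 7 of 31 alternatives and ran from 1.12 to 5.99 with 1 library left out, the highest again without C1 DM3 replicate 2, when the C1 DM3 library left held no read of it.

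miR-99a-5p was the most abundant name that differed. It is cut from an intron of Mir99ahg (Mir99a, ENSMUSG00000065530.1, chr16:77598936-77599000), next to let-7c. It was at 1748 and 3186 CPM in GM and 2314 and 4146 CPM in DM3 in clone C1, and at 4845 and 7956 CPM in GM and 5552 and 9039 CPM in DM3 in clone C2. All C2 libraries were above all C1 libraries, and the controls ran from 7103 to 14145 CPM. The log2 fold change was 1.37 (SE 0.33, adjusted p = 0.0207), and the adjusted p was 0.0764 to 0.137 without C1 GM replicate 1, C1 DM3 replicate 1, C2 GM replicate 2 or C2 DM3 replicate 2. Its seed relative miR-100-5p, which differs at 1 of 22 positions, was at 4371 to 9729 CPM in clone C1 and 5276 to 10528 CPM in clone C2. miR-125b-2-3p, from the third hairpin of the same transcript, had a log2 fold change of 1.38 (SE 0.40, adjusted p = 0.0701). It passed in 7 of 31 alternatives and ran from 1.20 to 6.02 with 1 library left out, the highest without C1 DM3 replicate 2, when the C1 DM3 library left held no read of it. let-7c-5p, which has further hairpins elsewhere, was at 33892 to 43953 CPM in clone C1 and 36274 to 44415 CPM in clone C2.

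The miR-34b and miR-34c hairpins, targets of p53, lie 451 bases apart in an intron of Btg4, antisense to it (Mir34c, chr9:51103034-51103110, and Mir34b, chr9:51103562-51103645). miR-34c-5p was at 1536 and 1337 CPM in GM and 2238 and 2635 CPM in DM3 in clone C1, and at 2846 and 3687 CPM in GM and 5102 and 4846 CPM in DM3 in clone C2. All C2 libraries were above all C1 libraries (log2 fold change 1.17, SE 0.25, adjusted p = 0.00972). miR-34b-3p was at 367 and 1023 CPM in GM and 514 and 683 CPM in DM3 in clone C1, and at 1060 and 1402 CPM in GM and 1438 and 1527 CPM in DM3 in clone C2 (1.17, SE 0.29, adjusted p = 0.0317). Leaving out 1 library ended the call of miR-34b-3p in 9 of 16 fits and that of miR-34c-5p in 2, those without C1 DM3 replicate 1 (0.0644) and without C2 GM replicate 2 (0.114). miR-34c-3p had a log2 fold change of 1.08 (SE 0.39, adjusted p = 0.141), or 0.86 to 1.85 with 1 library left out, and passed in 4 of 31 alternatives. Of the 5 miR-34 names tested, 2 were called higher (10 of 574 over all names, 1.74%), and all 5 log2 fold changes were above 0, as were 268 of the 574 over all names. miR-34b-5p had one of 0.75 (adjusted p = 0.428), and miR-34a-5p, from a locus on another chromosome, had one of 0.31 (adjusted p = 0.685) and was at 283 to 529 CPM in clone C1 and 325 to 610 CPM in clone C2.

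**Figure D2:**
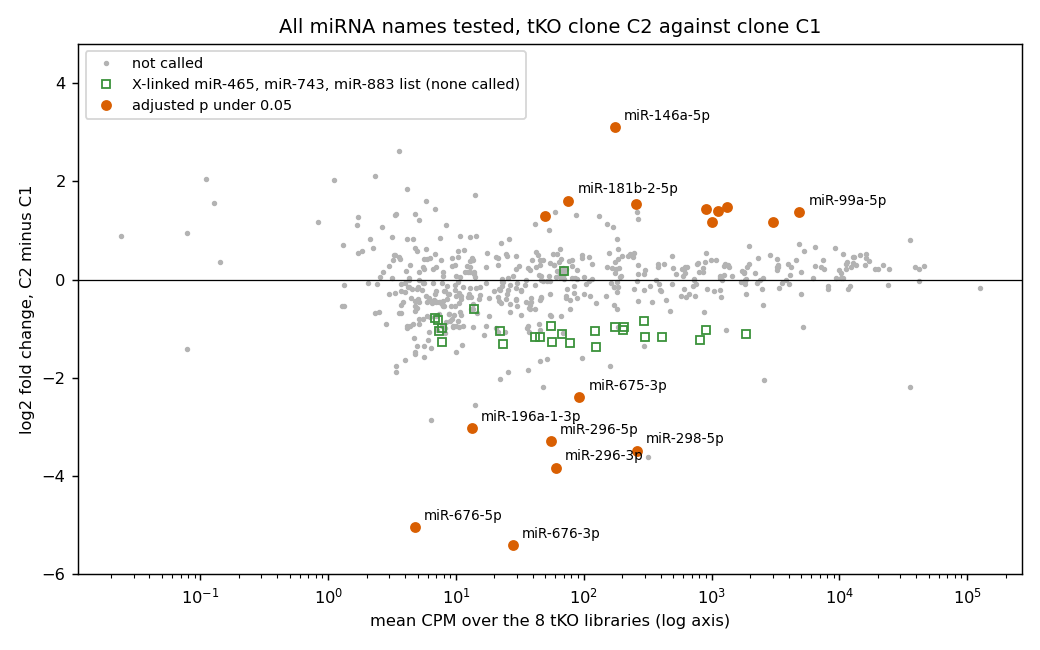
Log2 fold change of clone C2 against clone C1 (mean of both media) for the 574 names tested, plotted against their mean CPM over the 8 tKO libraries on a log axis. Orange points are the 17 names with an adjusted p under 0.05, green squares the 26 names of an X-linked list, of which 25 lie below 0 and 0 were called.

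Within each medium fewer names passed. In GM 10 of 574 names differed (1.74%): miR-146a-5p, miR-181b-5p, miR-181b-1-5p and miR-181b-2-5p were higher in clone C2 (0.697%), and miR-298-5p, both arms of miR-296 and miR-676, and miR-675-3p were lower (1.05%). Of these, miR-675-3p rested on 4 and 19 reads in clone C1 and 2 and 2 reads in clone C2. miR-676-5p rested on 5 and 26 reads in clone C1 and 0 and 0 reads in clone C2. The count of names in GM was 5 without C2 GM replicate 1, 5 without C2 GM replicate 2 and 6 without C1 GM replicate 2. In DM3 4 names differed (0.697%), all lower in clone C2: miR-298-5p, miR-296-3p, miR-296-5p and miR-676-3p. The count was 0 without C2 DM3 replicate 2, 12 without C1 DM3 replicate 2, and 7 without either C1 GM replicate 1 or C1 GM replicate 2. No name passed for the interaction of clone and medium by edgeR (0 of 574, or 0%), with 12 at an unadjusted p under 0.05, and DESeq2 called 1, miR-146a-5p.

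Each clone was then placed beside the controls, to describe where the difference between the clones lay. Both contrasts share the 8 control libraries. Clone C1 differed from the controls at 74 of 574 names (12.9%), 40 higher (6.97%) and 34 lower (5.92%). Clone C2 differed at 45 (7.84%), 13 higher (2.26%) and 32 lower (5.57%). The 17 names were picked by the clone difference in these same tKO libraries. At least 1 clone was therefore likely to lie away from the controls, so their split is descriptive. Of the 17, 14 passed the test against the controls in clone C1 and not in clone C2. The reverse held for 3, and none passed in both or in neither. The 3 of clone C2 were miR-298-5p (log2 fold change against controls -4.10 in clone C2, -0.62 in clone C1), miR-296-3p (-4.65 and -0.82) and miR-296-5p (-4.19 and -0.90). All 10 names higher in clone C2 than in clone C1 were below the controls in clone C1, among them miR-146a-5p (-2.52 in clone C1, 0.59 in clone C2), miR-99a-5p (-2.02 and -0.65), miR-181b-5p (-1.37 and 0.17) and miR-34c-5p (-0.87 and 0.31). miR-676-3p (6.43 in clone C1, 1.02 in clone C2), miR-196a-1-3p (4.14 and 1.11) and miR-675-3p (1.38 and -1.02) were above the controls in clone C1. Without C1 DM3 replicate 2, however, the clone C1 value of miR-196a-1-3p was -0.17. Without C2 DM3 replicate 2, the clone C2 values were -0.74 for miR-676-3p and -1.64 for miR-196a-1-3p. The call of miR-675-3p in clone C1 against the controls was lost in 10 of 26 alternatives, with an adjusted p of up to 0.642, and that of miR-34c-5p in 5 of 27. The same call was lost in 5 of 26 for miR-181a-1-3p (adjusted p up to 0.0717), in 2 of 25 for miR-676-5p and in 1 of 25 for miR-196a-1-3p. Without C1 DM3 replicate 1 the split of the 17 names was 12 in clone C1 alone, 2 in clone C2 alone, 1 in both (miR-296-5p) and 2 in neither (miR-34c-5p and miR-675-3p). A name that did not pass is not shown to equal the controls. In clone C1, miR-298-5p and miR-296-5p had an edgeR adjusted p of 0.166 and 0.113 against the controls, both with values below them. In clone C2, miR-99a-5p was at 4845 and 7956 CPM in GM, below all GM controls (9245 to 14145 CPM). In DM3 it overlapped with them, and it did not pass (edgeR adjusted p = 0.256).

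**Figure D3:**
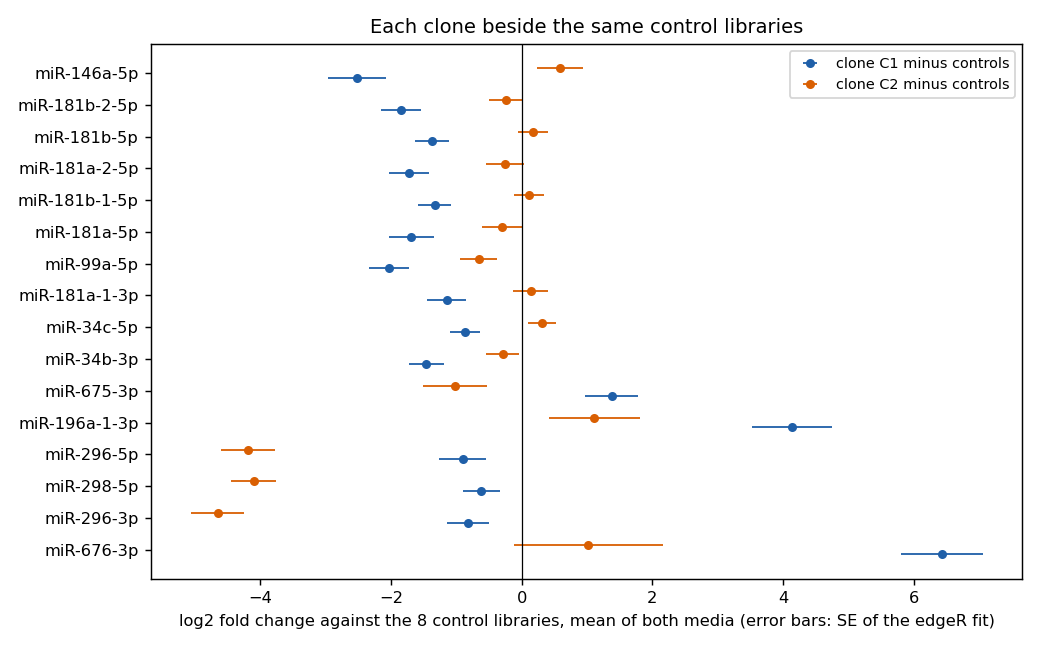
Log2 fold change of each clone against the same 8 control libraries, mean of both media, with the SE of the edgeR fit as error bars, for 16 of the 17 names (miR-676-5p, with no reads in several groups, is not drawn). Blue points of clone C1 lie below 0 for the 10 upper names and orange points of clone C2 between -0.65 and 0.59, while for miR-296 and miR-298 the orange points lie between -4.65 and -4.10.

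The difference between the clones was itself set against the difference between the control populations. miR-298-5p (-3.42, SE 0.46, adjusted p = 0.000304) and miR-296-3p (-3.43, SE 0.54, adjusted p = 0.00129) passed this test, 2 of 574 names (0.348%), and miR-296-5p did not (-2.54, SE 0.57, adjusted p = 0.054). Between the populations, miR-298-5p had a log2 fold change of -0.07, miR-296-3p of -0.40 and miR-296-5p of -0.75. The numbers 1 and 2 of the lines are arbitrary. With the populations in the other order these values would change, and the names that pass could differ. That order was not tested. The count was 5 without C1 GM replicate 2 and 8 without C2 DM3 replicate 2.

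A list of X-linked miRNAs of the miR-465, miR-743, miR-871 and miR-883 families had lower values in clone C2 with few exceptions. It is clustered on chromosome X and known for expression in testis. In the main fit (edgeR with TMM scaling, 574 names) 0 of its members were called. Its 26 tested names lie between chrX:66776760-67988403, 25 had a negative log2 fold change (305 of 574 over all names), 18 were lower in all 4 matched pairs (68 of 574) and 13 did not overlap in either medium with clone C2 lower (42 of 574, or 7.32%). The median log2 fold change was -1.05, with -1.10 in GM and -1.02 in DM3, against -0.04 over all names tested. The lowest adjusted p was 0.0701 (edgeR, 0 called), and 18 of the names had an unadjusted p under 0.05 (84 of 574 over all names). The number called depended on the fit: 7 with library-sum scaling, 13 with DESeq2, 6 of the 18 left by a filter at a mean of 50 CPM in a group, 9 without C2 DM3 replicate 2, 3 without C1 GM replicate 2 and 0 without C1 DM3 replicate 1, all lower in clone C2. The 42 other names placed on chromosome X had a median of -0.10. The single name above 0 was miR-883a-3p, with a log2 fold change of 0.19.

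The summed level of this list was 3931 and 6902 CPM in GM and 7517 and 14354 CPM in DM3 in clone C1, and 1633 and 2836 CPM in GM and 3172 and 7140 CPM in DM3 in clone C2. Each C2 library held less than the C1 library of the same medium and replicate number, though C2 DM3 replicate 2 was close to C1 DM3 replicate 1. The controls ran from 7210 to 15019 CPM. Its most abundant name, miR-871-3p, was at 1054 and 2957 CPM in GM and 2208 and 4035 CPM in DM3 in clone C1, and at 452.9 and 918 CPM in GM and 1103 and 2218 CPM in DM3 in clone C2 (log2 fold change -1.11, SE 0.39, adjusted p = 0.131), and it passed in 7 of 31 alternatives. Against the controls 17 of the 26 names were called lower in clone C2 (32 of 574 over all names, 5.57%) and 1 in clone C1 (34 of 574, 5.92%), with medians of -1.27 and -0.22.

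**Figure D4:**
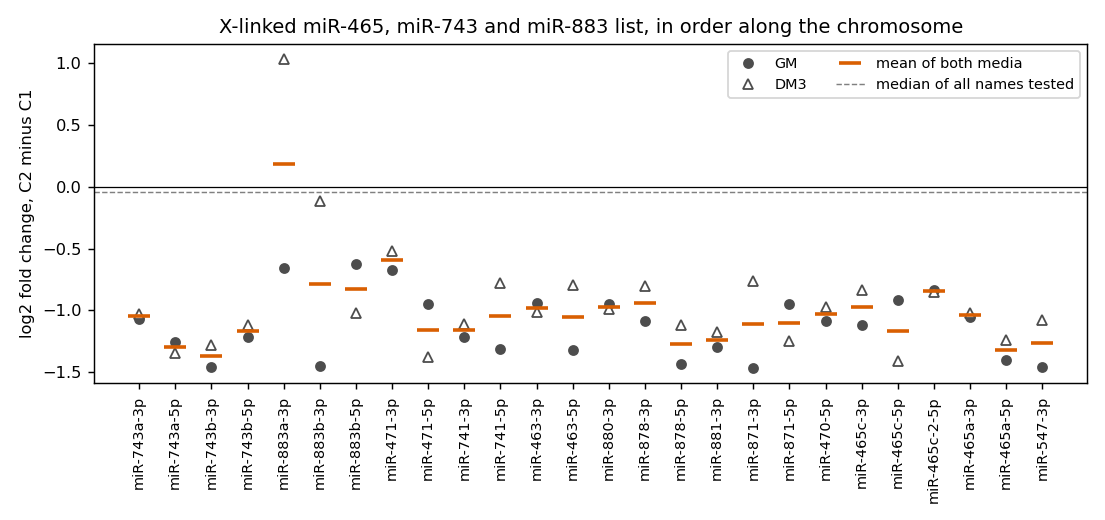
Log2 fold change of clone C2 against clone C1 for the 26 tested names of the X-linked list, in their order along the chromosome: filled circles for GM, open triangles for DM3 and orange bars for the mean of both media. The dashed line is the median of all 574 names (-0.04), and all bars lie below 0 but that of miR-883a-3p.

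Of 12 tested names of the muscle list, 0 were called (17 of 574 over all names, 2.96%, a share so low that 0 of 12 says little about the list), and their median log2 fold change was 0.17. miR-133b-3p, whose hairpin neighbours the deleted miR-206, had no read in GM in either clone. In DM3 it was at 95.8 and 24.8 CPM in clone C1 and 219 and 88.1 CPM in clone C2 (log2 fold change in DM3 2.03, SE 0.65, adjusted p = 0.223), so the clones overlapped, against 423 to 862 CPM in control DM3. miR-133a-2-3p was at 439 and 59.3 CPM in clone C1 and 732 and 227 CPM in clone C2 in DM3 (1.43, SE 0.72, adjusted p = 0.582). With 1 library left out, the DM3 value of miR-133b-3p ran from 1.03 to 2.496 and that of miR-133a-2-3p from 0.39 to 2.87, each lowest without C1 DM3 replicate 2 and highest without C1 DM3 replicate 1, and neither passed. miR-133a-3p was at 0.627 to 45.4 CPM in clone C1 and 0.192 to 77.2 CPM in clone C2. miR-486b-5p was at 98.4 to 212 CPM in clone C1 and 156 to 318 CPM in clone C2 (0.41, SE 0.32, adjusted p = 0.648, or 0.18 to 0.64 with 1 library left out), miR-486a-5p at 30.1 to 106 CPM and 33.9 to 80.4 CPM, and miR-499-5p at no more than 8.36 CPM and 9.65 CPM.

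Of the other families, none of the 27 tested names of let-7 and miR-98 was called (median 0.06), nor any of the 19 of miR-17-92 and its paralogs (-0.03), the 12 of miR-30 (0.01), the 8 of miR-29 (-0.37) or the 6 of miR-378 (-0.22), against a median of -0.04 and a share called of 2.96% over all names, so that counts of 0 in lists of this size lie near the background. The 12 names of miR-23, miR-27 and miR-24 had a median of 0.41 with none called, and 11 were above 0. The most abundant of them, miR-27b-3p, had a log2 fold change of 0.81 (SE 0.24, adjusted p = 0.0701, passing in 6 of 31 alternatives), with 9252 to 39708 CPM in clone C1 and 18948 to 83231 CPM in clone C2. Medians away from 0 with 0 called were also those of miR-199 and miR-214 (0.51, 8 of 8 positive), miR-221 and miR-222 (0.46, 4 of 4), miR-143 and miR-145 (0.31, 3 of 3) and the miR-322 cluster (-0.34, 0 of 11 positive). The 12 names of miR-125, miR-99 and miR-100 had a median of 0.22, with miR-99a-5p called. The 15 names of miR-9, miR-129 and miR-344 had a median of 0.47 with none called, and miR-129-5p, the most abundant, was at 41.0 to 288 CPM in clone C1 and 167 to 594 CPM in clone C2 (1.37, SE 0.52, adjusted p = 0.151, passing in 7 of 31 alternatives, with 0.95 to 2.27 when 1 library was left out). Among the most abundant names of other lists, let-7i-5p was at 20387 to 62499 CPM in clone C1 and 21785 to 50126 CPM in clone C2, miR-30d-5p at 17937 to 35036 CPM and 22864 to 27070.2 CPM, and miR-615-3p of the Hox clusters at 11010.2 to 21423 CPM and 18112 to 19026 CPM.

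Some lists were nearly absent from both clones. The Sfmbt2 cluster summed to at most 2.28 CPM in clone C1 and 2.53 CPM in clone C2, against 24.4 to 60.2 CPM in the controls, and the Dlk1-Dio3 cluster to at most 17.9 CPM and 12.1 CPM, against 0 to 6.77 CPM in the controls. The summed markers of other cell types overlapped between the clones: blood markers summed to at most 1.25 CPM in clone C1 and 2.53 CPM in clone C2, endothelial ones to 6.46 CPM and 9.47 CPM, epithelial ones to 34.2 CPM and 29.6 CPM, and miR-122 of liver and serum to 83.4 CPM and 38.9 CPM. Names also made in neurons, chiefly miR-128-3p, summed to 1512 to 3130 CPM in clone C1 and 1827 to 2667 CPM in clone C2, and none of the 7 tested was called. The fragment-prone names summed to 5236 to 233998 CPM in clone C1 and 2984 to 15754 CPM in clone C2, with none of 7 called. miR-6240-3p had a log2 fold change of -2.19 (SE 0.85, adjusted p = 0.222), which was -0.70 without C1 DM3 replicate 1, and passed in 4 of 29 alternatives.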

How the data were processed

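Small RNA was sequenced from 16 C2C12 libraries, and the comparison rests on the 8 of the tKO clones. The deposited tables are unitas tables of sequences listed by miRNA name, per the file headers. Their reads are expected counts without normalization: in the deposited tables a read that fits several names enters each as a fraction. The submitters' processing notes name cutadapt 1.15, STAR 2.5.4 and mm10, with no role stated, and the unitas version is not given in the sources used here. Members, lists and tests were chosen with earlier results of these data known, which applies to every list named. Expected counts were summed per name over sequences of 18 to 25 nt without a mismatch, which kept 1502 of 2510 names, and were rounded for testing. Longer, shorter and mismatched reads were left out of levels and tests.

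edgeR 4.0.16 in R 4.3.3 fitted all 16 libraries with 1 coefficient for each of 8 line and medium groups (8 residual degrees of freedom), after filterByExpr with a smallest count of 10, which left 574 names, and TMM scaling. Robust quasi-likelihood F tests were adjusted by Benjamini-Hochberg over all 574. Names were chosen for the text when their adjusted p was under 0.05, their mean was at least 100 CPM in 1 of the 4 clone and medium groups and all 4 matched pairs moved the same way (up to 12 in each direction), with muscle miRNAs, other arms and the most abundant name of each list added. The scripts were tested on simulated data. Single values were compared by exact permutation within media. Alternatives covered scaling, filters, DESeq2 1.42.0, counting rules, depth, blocks and each library left out. Nothing in the labels says whether replicates were separate cultures beyond the word biological, and reads carry no molecular identifiers.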

Additional observations from a re-analysis of the deposited data

Results flagged for a closer look

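2 results stood out because the difference between the clones departed from the difference between the control populations under the same contrast, by a test of the difference itself. For miR-298-5p the clone difference minus the population difference was -3.42 on the log2 scale (SE 0.46, edgeR adjusted p = 0.000304). For miR-296-3p it was -3.43 (SE 0.54, edgeR adjusted p = 0.00129). The order of the populations in this contrast is arbitrary, and the other order was not tested. Both names come from hairpins 378 bases apart and may not be independent results. Their dependence was not tested. A group of 2 libraries cannot by itself show which of them is outlying. The C1 DM3 replicate 1 library stood apart by comparison with the other tKO libraries.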

How the results depend on the processing

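The count of names that differed between the clones was 17. It was 28 with library-sum scaling, 44 with DESeq2, 35 with no filter on low counts, 44 with a replicate block, 32 with replicate 1 alone and 42 with replicate 2 alone, and it ranged from 7 to 25 with each library left out. In GM (10 names) it was 4 with all rows counted and 4 when thinned to the smallest library, and 5 to 11 with each library left out. In DM3 (4 names) it was 17 with DESeq2, 11 with no filter, 9 with a replicate block and 0 with all rows or thinned counts, and 0 to 12 with each library left out. The interaction (0 names) gave 1 with DESeq2, with no filter, with a replicate block and with a replicate block in the tKO libraries only, each time miR-146a-5p, and 0 to 0 with each library left out. The clone difference against the population difference (2 names) gave 9 with DESeq2, 5 with no filter, 7 with a replicate block, 1 with all rows, 4 with thinned counts and 12 with neither fragment-rich C1 library (chosen after seeing the data), and 2 to 8 with each library left out. The population contrast gave 0 in every alternative run.

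All 17 names were called under the replicate block and under DESeq2, but the tKO libraries alone lost 5 of them (adjusted p 0.0723 to 0.166), and 2 with a replicate block (0.0728 to 0.102). Of the 26 X-linked names, 0 were called, but 11 with a replicate block and 13 with DESeq2. The main fit did not use the replicate numbers to pair libraries, though the naming rule and the counts of matched pairs did. Same-numbered deviations of C1 and C2 correlated at 0.34 in GM and 0.51 in DM3. Over 28 pairs of groups, however, the correlation ran from -0.27 to 0.59. Single libraries turned the direction of 2 hairpins. miR-196a-1-3p was 1.23 between the clones and -0.17 for clone C1 against the controls without C1 DM3 replicate 2, and -1.64 for clone C2 against the controls without C2 DM3 replicate 2. With each library left out the clone value lay between -5.72 and 1.23, the C1 value reached up to 4.40 and the C2 value up to 1.41. miR-676-3p in clone C2 against the controls was -0.74 without C2 DM3 replicate 2, in a range up to 2.14, and miR-676-5p was -0.069 with all rows counted. miR-146a-5p was not called with replicate 2 alone (2.71, adjusted p = 0.322). The causes were not tested. Leaving out C1 DM3 replicate 2 also moved the median of all names to 0.42, and counting all rows moved it to -0.29. The miR-206-3p difference of 0.41 between the clones was 0.74 with a pseudocount of 0.5, -0.18 with 5, and -1.16 to 1.98 with each tKO library left out. The share of reads kept differed by 1.84 to 14.6 percentage points with each tKO library left out. Fits with the tKO libraries or 1 replicate number alone give no population contrast. Where a library was left out, the lone sample of its group was assumed to vary like the others. Depth limited the C1 DM3 replicate 1 library, where 3 reads are 45.4 CPM.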
